A study of Mus musculus with 6 samples.

Results

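The genes of cholesterol and fatty acid synthesis were followed after 2 h of panobinostat in mouse Notch1 T-ALL, a leukaemia of T-cell precursors. The set held 35 genes picked by symbol, namely 18 sterol enzymes, 6 genes of the SREBP control system and sterol transport, and 11 enzymes of fatty acid synthesis. Of these, 33 had a row among the 13185 rows of the deposited table, and all 33 passed the filter on low values that left 12554 genes for testing. The fatty acid genes Me1 and Fads2 had no row and were not analysed here.

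Cholesterol is built from acetyl-CoA through mevalonate, isoprenyl diphosphates, squalene and lanosterol, and the isoprenyl branch also supplies the lipid anchors of small GTPases and the side chain of ubiquinone. Most enzymes of the route are transcribed under SREBP factors, which are made as membrane precursors, held in the endoplasmic reticulum by SCAP and INSIG proteins when sterols are plentiful, and cleaved in the Golgi when sterols are short. Fatty acids are built from the same cytosolic acetyl-CoA, which is also the substrate of histone acetyltransferases. T cells are known to raise both routes when their antigen receptor is engaged, since dividing cells need new membrane.

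There were 3 libraries of Notch1 T-ALL cells given 25 nM panobinostat, an inhibitor of histone deacetylases, for 2 h, and 3 libraries of the same cells left untreated. Cells of both groups grew over anti-CD3 fixed to the plate at 2.5 ug/mL and in IL-2, a growth factor of T cells, at 100 U/mL, so that each group carried a T cell receptor stimulus. The labels gave no further allele, strain or age, and nothing in them told if a group's libraries came from separate cultures, so that p-values measure the spread between these libraries only, which may be technical. RNA was read with a 3' mRNA kit, which counts the polyadenylated ends of transcripts. Values are log2 CPM (counts per 1000000 reads) as deposited, with libraries numbered 1 to 3 in each group by the names of the table's columns.

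The first 200 steps between tied values gave an estimated 5.99 to 7.57 reads for each CPM in panobinostat libraries. In untreated libraries the estimate was 6.57 to 7.72. Taken as the depth in units of 1000000 reads, these estimates are rough, since the values were inferred to be quantile normalized. The same holds for the read numbers of single genes given below. On the first principal component of all tested genes the panobinostat libraries lay between 35.4 and 43.2, and untreated library 1 (-25.7) lay nearer to them than untreated libraries 2 (-48.0) and 3 (-41.0) did. All 13 T cell markers looked up were in the table, including Cd3e, Lck and Notch1, and their summed level was 1400 to 1420 CPM in panobinostat libraries and 1720 to 1850 CPM in untreated libraries, with 1 marker called higher and 5 called lower. Of all tested genes 19.2% were called higher and 19.0% lower, the shares to set beside this list and those that follow. RNA of other blood cells was present as well. The 7 erythroid markers summed to 6310 to 6710 CPM in panobinostat libraries and 6710 to 7960 CPM in untreated libraries, with 1 called higher and 4 called lower. The 10 myeloid markers summed to 1060 to 1160 CPM in panobinostat libraries and 1300 to 1480 CPM in untreated libraries, with 0 called higher and 4 called lower. Of 6 B cell markers 5 were in the table (all but Pax5), summing to 50.9 to 51.6 CPM in panobinostat libraries and 59.7 to 69.0 CPM in untreated libraries, with 0 called higher and 2 called lower. Of 8 markers of fat and liver cells only Fabp4 was in the table, at 3.11 to 4.0 CPM in panobinostat libraries and 1.69 to 2.22 CPM in untreated libraries. The part of these other cells in the results was not tested, and in such bulk libraries fewer cells of a type and less RNA per cell cannot be told apart.

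After panobinostat 9 of 18 sterol enzymes rose and 1 fell, and fatty acid enzymes went both ways. Of 6 SREBP control genes 1 rose and 1 fell, 16.7% each, near the 19.2% and 19.0% of all tested genes. Of the 33 genes tested, 12 were called higher and 5 lower in panobinostat libraries (limma, Benjamini-Hochberg adjusted p below 0.05 over all genes). Those were 36.4% and 15.2% of the set, where 19.2% of all tested genes were called higher and 19.0% lower, 38.3% in all. The calls higher were therefore more frequent in the set than in the background, while the calls lower were close to it. Panobinostat libraries lay wholly above untreated libraries in 13 genes and wholly below in 7, and 51.4% of all tested genes showed one or the other. The median log2 fold change was 0.23 over the set and -0.0052 over all tested genes.

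The sterol enzymes stood out by the direction of their calls and not by how often they were called. Fatty acid enzymes, with 2 rises and 3 falls among 9 genes, were called as often. Of 18 sterol enzymes 9 rose and 1 fell, with a median log2 fold change of 0.53. Among all tested genes 19.2% were called higher and 19.0% lower. In each library the mean level over the 18 genes was 4.68, 4.79 and 4.72 log2 CPM in panobinostat libraries 1 to 3, against 4.32, 4.40 and 4.44 log2 CPM in untreated libraries 1 to 3, so that the groups did not overlap. Their summed level was 776.4, 808.6 and 786.1 CPM in panobinostat libraries, against 608.6, 694.3 and 616.5 CPM in untreated libraries. The rises were denser in the first stretch of the route. From acetyl-CoA to farnesyl diphosphate 5 of 7 enzymes rose (71.4%) and 0 fell (median log2 fold change 0.70). From squalene to cholesterol 4 of 11 rose and 1 fell (36.4% and 9.1%, median 0.18). The difference between the stretches was not tested.

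**Figure D1:**
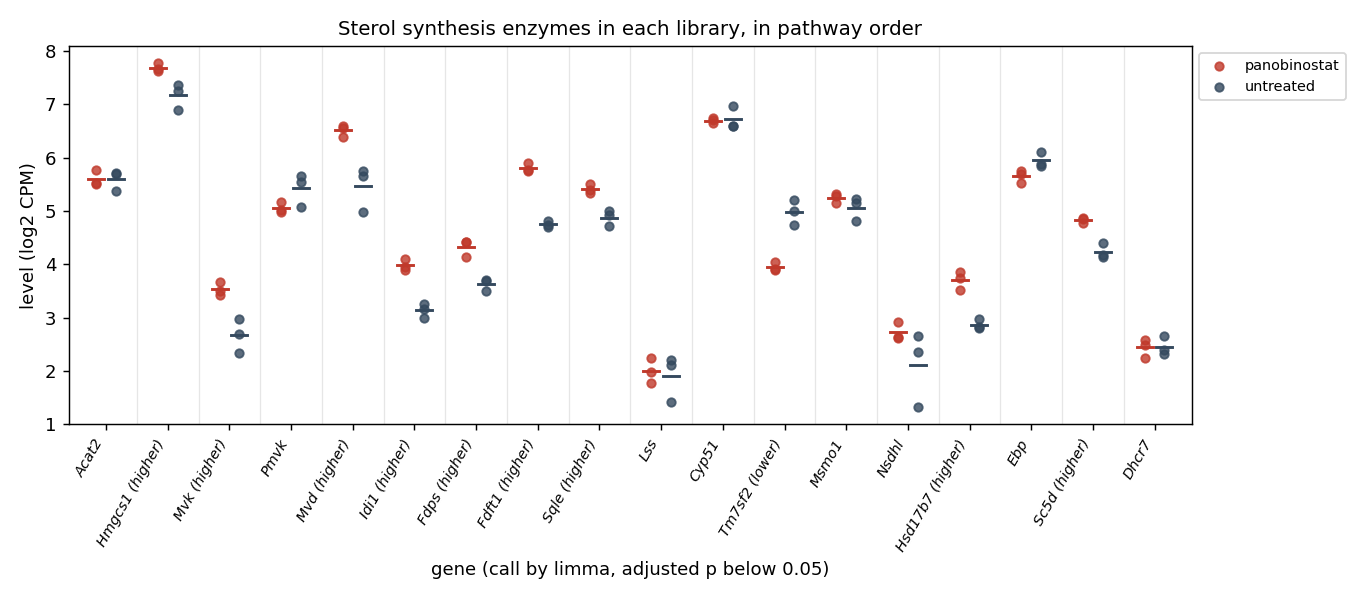
Level of the 18 sterol synthesis enzymes in log2 CPM, in the order of the pathway, with 1 point per library, panobinostat libraries in red on the left of each pair and untreated libraries in dark blue on the right, and bars at the group means (n = 3 each). From Mvd to Sqle the panobinostat points sit above the untreated points in every gene. Tm7sf2 and Ebp, which was not called, show the opposite. Acat2, Pmvk, Lss, Cyp51, Msmo1, Nsdhl and Dhcr7 overlap.

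At the entry of the mevalonate route the enzymes did not move alike. Acat2, the cytosolic thiolase that joins a pair of acetyl-CoA molecules, was at 5.52, 5.77 and 5.51 log2 CPM in panobinostat libraries 1 to 3 and at 5.37, 5.71 and 5.69 in untreated libraries 1 to 3. These groups overlapped (log2 fold change 0.01, SE 0.13, limma adjusted p = 0.96). Hmgcs1 (chromosome 13, 119690379 to 119708260, GRCm38), the HMG-CoA synthase that takes the next step, stood at 7.63, 7.66 and 7.77 log2 CPM in panobinostat libraries and at 7.36, 7.24 and 6.90 in untreated libraries. All panobinostat libraries lay above all untreated libraries, and Hmgcs1 rose by 1.43-fold (limma log2 fold change 0.52 with SE 0.12, adjusted p = 0.0128). The Hmgcs1 call was lost without panobinostat library 3 (log2 fold change 0.48, limma adjusted p = 0.0506).

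Mvk, the mevalonate kinase, had 3.43, 3.67 and 3.49 log2 CPM in panobinostat libraries and 2.33, 2.69 and 2.97 in untreated libraries. It rose by 1.82-fold with no overlap (log2 fold change 0.87, SE 0.20, limma adjusted p = 0.0114), on an estimated 64 to 86 reads in panobinostat libraries and 39 to 51 reads in untreated libraries. Pmvk, the kinase that follows it, pointed the other way, with 4.97, 5.01 and 5.17 log2 CPM in panobinostat libraries and 5.07, 5.66 and 5.55 in untreated libraries. Untreated library 1 lay inside the panobinostat range, and the Pmvk difference did not pass (log2 fold change -0.37, SE 0.16, limma adjusted p = 0.0996), although it did without that library (-0.55, limma adjusted p = 0.00612).

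Mvd (chromosome 8, 122433601 to 122443422), which decarboxylates mevalonate diphosphate to the first isoprene unit, had 6.56, 6.59 and 6.38 log2 CPM in panobinostat libraries, against 4.98, 5.75 and 5.65 in untreated libraries. Untreated library 1 was the lowest, and the groups did not overlap. Mvd rose by 2.07-fold, with group means of 6.51 ± 0.12 log2 CPM in panobinostat libraries and 5.46 ± 0.42 in untreated libraries (SD, n = 3 each; log2 fold change 1.05, SE 0.19, limma adjusted p = 0.00509).

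Idi1, the isomerase that makes the reactive isoprene unit, stood at 3.89, 3.95 and 4.10 log2 CPM in panobinostat libraries and at 3.26, 3.0 and 3.16 in untreated libraries. Fdps, the farnesyl diphosphate synthase at the branch point to prenylation, was at 4.14, 4.42 and 4.42 log2 CPM in panobinostat libraries and at 3.69, 3.49 and 3.70 in untreated libraries. Both rose with no overlap, Idi1 by 1.79-fold (limma log2 fold change 0.84 with SE 0.14, adjusted p = 0.0034) and Fdps by 1.62-fold (0.70, SE 0.14, limma adjusted p = 0.00645). The end of Fdps lies over an exon of Gm43738 on the same strand and is near-identical to transcripts of Gm3571, Gm48326, Gm7979 and Gm8163, and its split of reads with them is uncertain. Gm3571 had a row, at 3.49, 2.28 and 3.14 log2 CPM in panobinostat libraries and 2.04, 2.53 and 2.69 in untreated libraries (log2 fold change 0.55, SE 0.33, limma adjusted p = 0.219).

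Squalene synthase, Fdft1 (chromosome 14, 63145150 to 63179578), commits farnesyl diphosphate to sterols and had the smallest adjusted p of the set. It was at 5.75, 5.89 and 5.77 log2 CPM in panobinostat libraries, against 4.70, 4.81 and 4.74 in untreated libraries. The groups were far apart and tight, at 5.80 ± 0.08 log2 CPM in panobinostat libraries and 4.75 ± 0.05 in untreated libraries (SD, n = 3 each), which was a rise of 2.07-fold (limma log2 fold change 1.05 with SE 0.09, adjusted p = 0.000349). The end of Fdft1 lies over an exon of the protease gene Ctsb on the opposite strand, and since the strand setting of the counting was not given in the sources used here, reads of such partners cannot be told apart. Ctsb itself stood at 5.33, 5.69 and 5.56 log2 CPM in panobinostat libraries and 5.40, 5.74 and 5.52 in untreated libraries (log2 fold change -0.03, SE 0.13).

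Sqle, squalene epoxidase, had 5.39, 5.51 and 5.33 log2 CPM in panobinostat libraries and 4.71, 4.92 and 4.99 in untreated libraries. It rose by 1.45-fold without overlap (log2 fold change 0.54, SE 0.11, limma adjusted p = 0.00756). After squalene the run of rises stopped. Lss, which closes the ring to lanosterol, was low and overlapped, with 1.78, 2.25 and 1.97 log2 CPM in panobinostat libraries and 2.21, 1.41 and 2.11 in untreated libraries (log2 fold change 0.09, SE 0.28). Cyp51, the lanosterol demethylase, was at 6.74, 6.64 and 6.70 log2 CPM in panobinostat libraries and at 6.60, 6.96 and 6.60 in untreated libraries (log2 fold change -0.03, SE 0.11). An estimated 21 to 32 reads in panobinostat libraries and 18 to 36 reads in untreated libraries stood behind Lss, whose SE was more than that of Cyp51 or Sqle. The end of Lss is near-identical to part of a transcript of 4930483K19Rik, and its split of reads with that gene is uncertain. The end of Cyp51 lies over an exon of Akap9 on the opposite strand, a gene that was lower in panobinostat libraries (log2 fold change -0.55, SE 0.14, limma adjusted p = 0.0151).

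Tm7sf2 (chromosome 19, 6062821 to 6068373) was the single sterol enzyme that fell. It encodes a sterol reductase that acts on the product of Cyp51, an activity it shares with the lamin B receptor. Its values were 3.90, 4.05 and 3.91 log2 CPM in panobinostat libraries, against 4.73, 5.0 and 5.20 in untreated libraries. Every panobinostat library was below every untreated library, and the untreated level was 2.03-fold higher (limma log2 fold change -1.02 with SE 0.14, adjusted p = 0.0018). The call held in each fit that left out 1 library, with log2 fold changes between -1.15 and -0.91.

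Further along the route 2 enzymes rose and the others did not pass. Hsd17b7, the ketosterol reductase, was at 3.52, 3.85 and 3.75 log2 CPM in panobinostat libraries and at 2.83, 2.80 and 2.97 in untreated libraries, and it rose by 1.79-fold (log2 fold change 0.84, SE 0.15, limma adjusted p = 0.00469). Sc5d, a sterol desaturase, was at 4.77, 4.84 and 4.86 log2 CPM in panobinostat libraries and at 4.17, 4.40 and 4.14 in untreated libraries, a rise of 1.5-fold (log2 fold change 0.59, SE 0.11, limma adjusted p = 0.00631). Neither gene had overlapping groups. The demethylation enzyme genes Msmo1 (log2 fold change 0.18, SE 0.13) and Nsdhl (0.61, SE 0.34) did not pass, and Nsdhl had 2.61, 2.91 and 2.64 log2 CPM in panobinostat libraries and a wide 2.36, 1.32 and 2.65 in untreated libraries. Ebp, the sterol isomerase, lay lower in panobinostat libraries without overlap (5.75, 5.70 and 5.52 log2 CPM) than in untreated libraries (5.88, 6.11 and 5.85), yet did not pass (log2 fold change -0.29, SE 0.11, limma adjusted p = 0.0701). Dhcr7, the reductase that yields cholesterol, overlapped fully (log2 fold change -0.01, SE 0.19).

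Promoters of sterol enzymes are shown because SREBP acts there together with NF-Y, which binds CCAAT, and Sp1, which binds GGGCGG. The windows run from 250 bases before to 50 bases after the RefSeq start of the gene, 5′ to 3′ on the gene's strand, on GRCm38.p6. The span given above for Tm7sf2 comes from another annotation (GENCODE), in which this minus-strand gene starts at 6068373. The Tm7sf2 window lies wholly inside that span, so its positions count from a start further along the gene. Shown are the sterol enzymes with the smallest adjusted p that had a window, plus Hmgcs1, whose window was the only one of the set to hold TCACNCCAC, the letters of the sterol regulatory element. Capitals mark every match on either strand to TCACNCCAC, TCACGTGA, CCAAT or GGGCGG, where a match on the opposite strand reads in reverse complement, as ATTGG or CCGCCC. In these windows no match overlapped one to another motif. The Hmgcs1 window lies at chr13:119690101-119690400 on the plus strand, that of Idi1 at chr13:8885356-8885655 on the plus strand, that of Hsd17b7 at chr1:169969156-169969455 on the minus strand and that of Tm7sf2, the enzyme gene that fell, at chr19:6067801-6068100 on the minus strand.
Hmgcs1: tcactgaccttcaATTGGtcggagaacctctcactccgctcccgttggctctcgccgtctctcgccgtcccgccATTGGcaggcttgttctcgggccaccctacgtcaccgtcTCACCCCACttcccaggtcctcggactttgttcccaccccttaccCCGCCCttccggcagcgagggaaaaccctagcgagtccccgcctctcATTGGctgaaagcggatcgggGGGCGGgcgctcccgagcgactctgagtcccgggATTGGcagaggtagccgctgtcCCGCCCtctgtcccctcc
Idi1: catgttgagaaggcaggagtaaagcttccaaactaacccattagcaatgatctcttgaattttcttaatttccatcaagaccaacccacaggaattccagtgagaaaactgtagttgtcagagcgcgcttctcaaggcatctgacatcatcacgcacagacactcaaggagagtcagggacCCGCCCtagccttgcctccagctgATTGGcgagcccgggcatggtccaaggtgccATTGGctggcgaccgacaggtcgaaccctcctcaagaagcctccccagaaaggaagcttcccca
Hsd17b7: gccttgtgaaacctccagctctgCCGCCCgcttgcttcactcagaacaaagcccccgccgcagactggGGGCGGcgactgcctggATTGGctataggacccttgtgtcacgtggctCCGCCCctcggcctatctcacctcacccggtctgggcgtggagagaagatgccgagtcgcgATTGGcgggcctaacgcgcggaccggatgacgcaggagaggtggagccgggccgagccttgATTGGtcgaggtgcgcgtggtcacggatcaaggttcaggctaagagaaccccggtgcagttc
Tm7sf2: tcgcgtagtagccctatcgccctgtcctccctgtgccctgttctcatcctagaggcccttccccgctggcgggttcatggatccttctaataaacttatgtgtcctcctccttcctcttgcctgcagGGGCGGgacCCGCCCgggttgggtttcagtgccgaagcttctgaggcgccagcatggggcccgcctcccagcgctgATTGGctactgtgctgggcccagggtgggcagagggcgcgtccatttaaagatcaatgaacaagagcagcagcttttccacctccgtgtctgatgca

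Counted with the start site as 0, the TCACNCCAC match of Hmgcs1 began at position -137, and CCAAT matches began at -237, -176, -45 and 10. Idi1 held CCAAT matches at -45 and -14, Hsd17b7 at -165, -73 and -12, and Tm7sf2 at -47, and each window also held GGGCGG. A window was found for 28 of the 35 genes by symbol, and not for Fdps, Fdft1, Sqle, Stard4, Scd1, Scd2 or Fads1. CCAAT occurred in 14 of the 15 sterol enzymes with a window (93.3%), in 4 of 5 control genes and in 5 of 8 fatty acid enzymes (62.5%), whereas 43.5% of the 8563 tested genes with a window held it and 37.4% of all 32851 windows did. GGGCGG occurred in 14 of the 15 sterol enzymes, in 69.6% of tested genes with a window and in 35.7% of all windows. TCACNCCAC was in 1 of 28 genes of the set, 1.37% of tested genes and 1.24% of all windows, and TCACGTGA in 0 of 28, 2.37% of tested genes and 0.974% of all windows. Among members with a window, CCAAT was in 8 of 9 called higher, 4 of 4 called lower and 10 of 13 not called, so these letters occurred in genes of either direction.

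**Figure D2:**
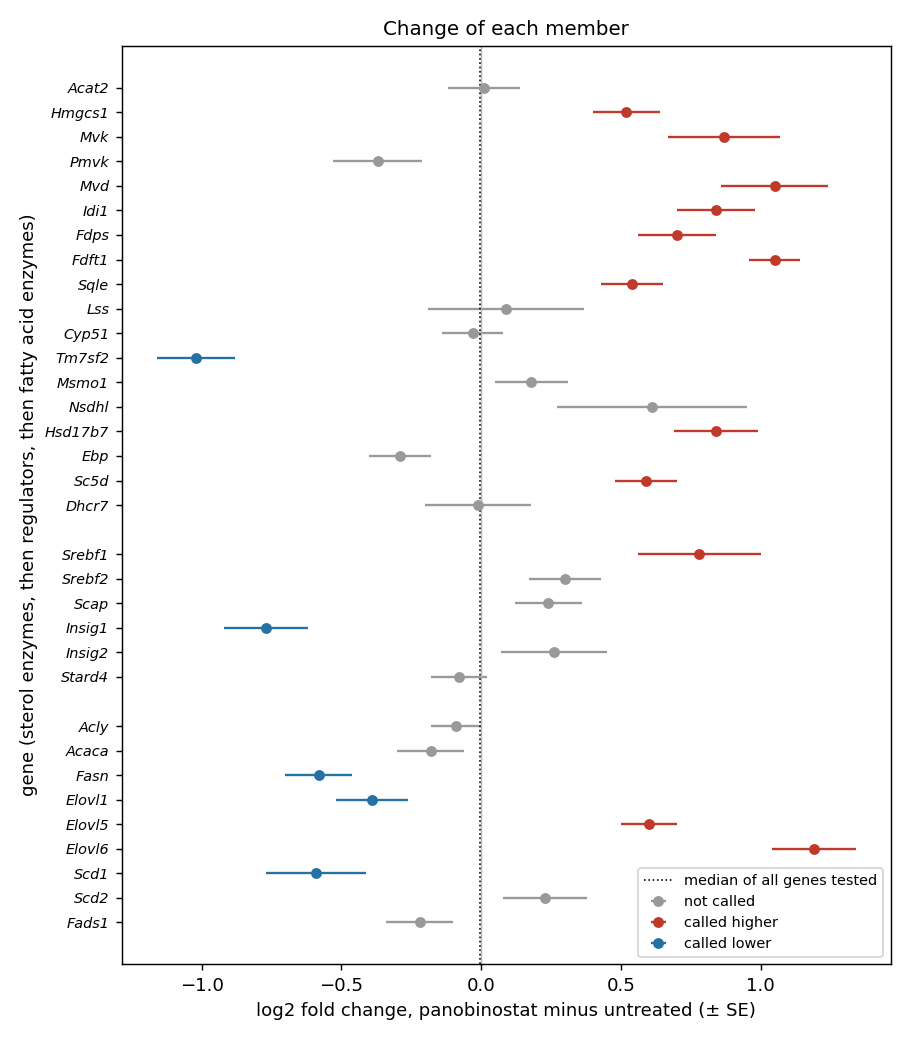
Log2 fold change of each of the 33 measured genes (panobinostat minus untreated, n = 3 each) with its SE, from limma, with sterol enzymes in pathway order at the top, control genes in the middle and fatty acid enzymes at the bottom. Red points are called higher, blue points lower and grey points not called, and the dotted line is the median of all tested genes (-0.0052). The rises of Hmgcs1, Mvk, Mvd, Idi1, Fdps, Fdft1 and Sqle stand beside the falls of Tm7sf2, Insig1, Fasn, Elovl1 and Scd1.

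The SREBP control genes were called about as often as all tested genes. Of 6 genes 1 rose and 1 fell, 16.7% each, which is close to the background shares of 19.2% and 19.0%. Their median log2 fold change was 0.25, with values from -0.77 to 0.78. Srebf1, which encodes the SREBP form with a leading role in fatty acid genes, was low, with 2.53, 2.79 and 2.93 log2 CPM in panobinostat libraries and 1.75, 1.9 and 2.26 in untreated libraries. It rose by 1.71-fold without overlap (log2 fold change 0.78, SE 0.22, limma adjusted p = 0.0249), on an estimated 35 to 58 reads in panobinostat libraries and 25 to 32 reads in untreated libraries. Srebf1 no longer passed when panobinostat library 2 (log2 fold change 0.76, limma adjusted p = 0.0728) or 3 (0.69, limma adjusted p = 0.0901) was left out, nor when untreated library 1 (0.67, limma adjusted p = 0.0522) or 2 (0.74, limma adjusted p = 0.0644) was. The end of Srebf1 lies over an exon of Rai1 on the opposite strand, which was lower in panobinostat libraries (log2 fold change -0.71, SE 0.19, limma adjusted p = 0.0217).

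Srebf2, the form with a leading role in sterol genes, was at 7.33, 7.22 and 7.31 log2 CPM in panobinostat libraries and at 7.16, 6.67 and 7.12 in untreated libraries. The groups were separate but close, and the gene did not pass (log2 fold change 0.30, SE 0.13, limma adjusted p = 0.108), while it did without untreated library 1 (0.39, limma adjusted p = 0.0483) and was at 0.15 without untreated library 2 (limma adjusted p = 0.196). Scap, the escort of SREBP to the Golgi, overlapped at 5.21, 5.30 and 5.41 log2 CPM in panobinostat libraries and 5.25, 4.85 and 5.08 in untreated libraries (log2 fold change 0.24, SE 0.12, limma adjusted p = 0.159). Stard4, a cytosolic sterol carrier, was at 5.38 ± 0.08 log2 CPM in panobinostat libraries and 5.46 ± 0.10 in untreated libraries (SD, n = 3 each; log2 fold change -0.08, SE 0.10).

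Insig1 (chromosome 5, 28071363 to 28078662) fell, in contrast to the mevalonate enzymes. It encodes a protein that retains SCAP in the endoplasmic reticulum and is itself known as a strongly induced SREBP target. It stood at 2.61, 2.40 and 2.55 log2 CPM in panobinostat libraries, against 3.38, 3.20 and 3.27 in untreated libraries. No panobinostat library reached an untreated one, and the untreated level was 1.70-fold higher (log2 fold change -0.77, SE 0.15, limma adjusted p = 0.00724), on an estimated 36 to 44 reads in panobinostat libraries and 62 to 81 reads in untreated libraries. Its paralogue Insig2 was at 5.36, 5.26 and 5.17 log2 CPM in panobinostat libraries and at 4.66, 5.46 and 4.89 in untreated libraries, and the overlap came from untreated library 2. Insig2 did not pass (log2 fold change 0.26, SE 0.19, limma adjusted p = 0.316), but did without that library (0.49, limma adjusted p = 0.024), and leaving out untreated library 1 gave 0.09 (limma adjusted p = 0.69). Within each library the log2 ratio of Insig2 to Insig1 was 2.75, 2.86 and 2.62 with panobinostat and 1.28, 2.25 and 1.61 in untreated libraries, a difference of 1.03 with no overlap. An exact two-sided permutation test over the 6 libraries gave p = 0.1, the smallest that 3 against 3 allows, and 0.125 after adjustment over the 5 pairs of related genes compared, which were chosen after their values were seen.

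**Figure D3:**
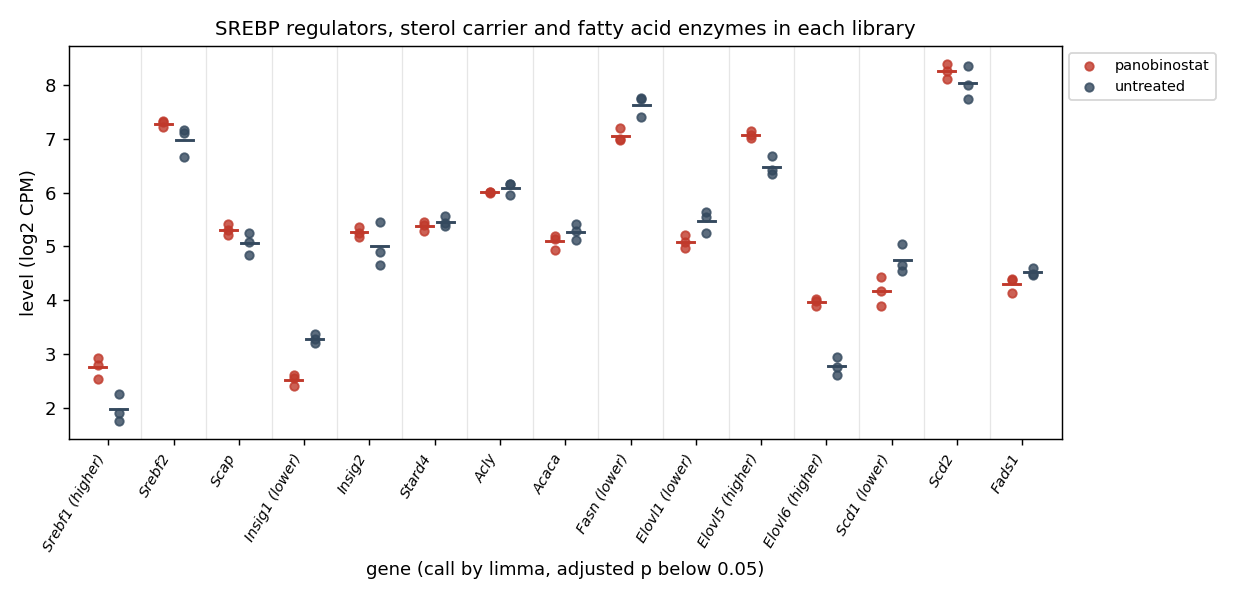
Level of the 6 SREBP control and carrier genes and the 9 measured fatty acid enzymes in log2 CPM, 1 point per library, with panobinostat libraries in red on the left of each pair and untreated libraries in dark blue on the right, and bars at the group means (n = 3 each). Insig1 and Fasn lie lower with panobinostat and Elovl6 higher, each with no overlap between the groups.

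Fatty acid enzymes showed no common direction. Of 9 measured genes 2 rose and 3 fell (22.2% and 33.3%, against 19.2% and 19.0% of all tested genes), and the median log2 fold change was -0.18. Their mean level per library was 5.67, 5.75 and 5.58 log2 CPM in panobinostat libraries and 5.67, 5.70 and 5.65 in untreated libraries, which overlapped.

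Acly, which makes cytosolic acetyl-CoA from citrate, stood at 6.01, 6.02 and 5.99 log2 CPM in panobinostat libraries and at 5.95, 6.17 and 6.16 in untreated libraries (log2 fold change -0.09, SE 0.09, limma adjusted p = 0.443). Acaca, which carboxylates it to malonyl-CoA, was at 5.20, 5.14 and 4.94 log2 CPM in panobinostat libraries and at 5.42, 5.12 and 5.28 in untreated libraries (log2 fold change -0.18, SE 0.12, limma adjusted p = 0.266). Both overlapped between the groups. Fasn (chromosome 11, 120805846 to 120824547), the synthase that builds palmitate, differed from them, with 6.99, 7.20 and 7.0 log2 CPM in panobinostat libraries and 7.41, 7.76 and 7.75 in untreated libraries. Its groups did not overlap, and the untreated level was 1.49-fold higher (limma log2 fold change -0.58 with SE 0.12, adjusted p = 0.00724).

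The elongases split. Elovl6 (chromosome 3, 129532355 to 129638495), which extends palmitate to stearate, had the largest log2 fold change of the 33 genes. It stood at 4.03, 3.98 and 3.89 log2 CPM in panobinostat libraries, against 2.95, 2.75 and 2.61 in untreated libraries. That was 3.96 ± 0.07 log2 CPM in panobinostat libraries and 2.77 ± 0.17 in untreated libraries (SD, n = 3 each), a rise of 2.28-fold with no overlap (log2 fold change 1.19, SE 0.15, limma adjusted p = 0.00113). Elovl5, which extends polyunsaturated chains, was at 7.08, 7.14 and 7.02 log2 CPM in panobinostat libraries and at 6.68, 6.42 and 6.35 in untreated libraries. It rose by 1.51-fold, again with no overlap (log2 fold change 0.60, SE 0.10, limma adjusted p = 0.00364).

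Elovl1, which makes very long saturated chains, fell slightly, at 5.08, 5.21 and 4.98 log2 CPM in panobinostat libraries and 5.25, 5.65 and 5.54 in untreated libraries (limma log2 fold change -0.39 with SE 0.13, adjusted p = 0.045). The groups lay close together without overlap, and the call held without untreated library 1 but was lost in each of the other fits with 1 library left out, at log2 fold changes of -0.38, -0.45 and -0.33 without panobinostat libraries 1, 2 and 3 and of -0.30 and -0.36 without untreated libraries 2 and 3. The end of Elovl1 lies over an exon of the mitosis gene Cdc20 on the opposite strand, which was lower in panobinostat libraries (limma log2 fold change -0.72 with SE 0.11, adjusted p = 0.00263). The log2 ratio of Elovl6 to Elovl1 was -1.05, -1.23 and -1.09 in panobinostat libraries and -2.30, -2.90 and -2.92 in untreated libraries, and that of Elovl5 to Elovl1 was 2.00, 1.93 and 2.04 in panobinostat libraries and 1.43, 0.77 and 0.81 in untreated libraries. Neither ratio overlapped between the groups (differences of 1.58 and 0.98, exact permutation p = 0.1 for each, 0.125 adjusted over the 5 pairs). These pairs were chosen after their values were seen, from genes called in opposite directions in the same libraries, so the ratios add no further support.

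Among desaturases, Scd1, which introduces the double bond of oleate, fell. It was at 4.17, 4.43 and 3.89 log2 CPM in panobinostat libraries and at 4.55, 5.04 and 4.66 in untreated libraries, with no overlap (log2 fold change -0.59, SE 0.18, limma adjusted p = 0.0378). Scd1 no longer passed when panobinostat library 1 (-0.59, limma adjusted p = 0.0859) or 3 (-0.45, limma adjusted p = 0.119) was left out, nor when untreated library 2 (-0.44, limma adjusted p = 0.106) or 3 (-0.63, limma adjusted p = 0.0767) was. Scd2, its paralogue with the same reaction, was at 8.11, 8.27 and 8.40 log2 CPM in panobinostat libraries and at 8.35, 7.75 and 8.0 in untreated libraries. Untreated library 1 lay within the panobinostat range, and Scd2 did not pass (log2 fold change 0.23, SE 0.15, limma adjusted p = 0.27), while it did without that library (0.39, limma adjusted p = 0.0277) and was at 0.09 without untreated library 2 (limma adjusted p = 0.649). The log2 ratio of Scd2 to Scd1 was 3.94, 3.83 and 4.52 in panobinostat libraries and 3.81, 2.70 and 3.33 in untreated libraries (difference 0.82, exact permutation p = 0.1, 0.125 adjusted over the 5 pairs), and the difference was 0.53 without untreated library 2. Srebf1 to Srebf2, the remaining pair, overlapped (difference 0.47, exact permutation p = 0.2). Like the others, these pairs were chosen after their values were seen. Fads1, a front-end desaturase of polyunsaturated chains, was at 4.39, 4.37 and 4.13 log2 CPM in panobinostat libraries and at 4.47, 4.59 and 4.49 in untreated libraries, separate by a narrow gap and not called (log2 fold change -0.22, SE 0.12, limma adjusted p = 0.182).

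Neighbouring lipid pathways were looked up as whole lists, whose shares of calls are set beside the 19.2% called higher and 19.0% called lower of all tested genes. Among genes of SREBP processing and degradation 3 rose and 2 fell of 11 measured (27.3% and 18.2%, median log2 fold change -0.20). The ubiquitin ligase gene Syvn1, known from the degradation of endoplasmic reticulum proteins, rose, with 4.48, 5.02 and 5.09 log2 CPM in panobinostat libraries, against 2.97, 2.45 and 2.26 in untreated libraries (limma log2 fold change 2.30 with SE 0.24, adjusted p = 0.000612). Fbxw7, whose product marks nuclear SREBP for degradation, rose as well (log2 fold change 0.53, SE 0.09, limma adjusted p = 0.00332). Ube2g2, a ubiquitin-conjugating enzyme gene, rose as well (1.27, SE 0.40, limma adjusted p = 0.037), but its untreated values were 4.58, 2.77 and 3.88 log2 CPM and its log2 fold change was 0.79 without untreated library 2, where the call held (limma adjusted p = 0.0345). Ube2g2 did not pass when any 1 of the panobinostat libraries was left out (1.34, 1.3 and 1.18 without libraries 1, 2 and 3), nor without untreated library 3 (1.34). With all libraries its call was also lost with robust spread estimates (limma adjusted p = 0.114) and without a mean-variance trend (limma adjusted p = 0.0721). The 2 falls of this list became 1 without panobinostat library 1, 2 or 3 or untreated library 3 and with robust spread estimates, and 4 with sample weights or with a mean log2 of at least 2.

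In sterol uptake, efflux and storage 6 rose and 4 fell of 15 measured (40% and 26.7%, against 19.2% and 19.0% of all tested genes, median log2 fold change 0.21). Rises included Npc1, which exports cholesterol from lysosomes, at 5.74, 5.74 and 5.85 log2 CPM in panobinostat libraries and 4.77, 4.45 and 4.74 in untreated libraries (log2 fold change 1.12, SE 0.12, limma adjusted p = 0.000612). Soat1, which esterifies cholesterol for storage, was at 5.61, 5.56 and 5.70 log2 CPM in panobinostat libraries and 4.76, 4.53 and 4.68 in untreated libraries (0.96, SE 0.10, limma adjusted p = 0.000682). Nceh1, which hydrolyses cholesteryl esters, was at 5.26, 5.33 and 5.26 log2 CPM in panobinostat libraries and 3.76, 4.17 and 4.06 in untreated libraries (1.29, SE 0.13, limma adjusted p = 0.000566). Genes of opposite reactions in storage thus rose together, and none of these 3 had overlapping groups.

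Of the prenyl branches that leave the route at farnesyl diphosphate, 5 rose and 3 fell of 14 measured (35.7% and 21.4%, against 19.2% and 19.0% of all tested genes, median log2 fold change 0.07). The farnesyltransferase subunit gene Fntb (-0.65, SE 0.10, limma adjusted p = 0.00254), Pdss2 of the ubiquinone side chain (-0.98, SE 0.20, limma adjusted p = 0.00766) and the prenyl protein protease gene Zmpste24 (-0.45, SE 0.09, limma adjusted p = 0.0073) fell. Icmt, which methylates prenylated proteins, rose (0.84, SE 0.17, limma adjusted p = 0.00775). The count of 5 rises became 3 without panobinostat library 2, 2 without panobinostat library 3 and 3 without untreated library 3.

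Other acyl chain enzymes gave 5 rises and 3 falls of 17 measured (29.4% and 17.6%, median log2 fold change 0.17), with the falls near the 19.0% of all tested genes. The acyl-CoA synthetase genes Acsl1 (1.03, SE 0.13, limma adjusted p = 0.0012), Acsl3 (0.53, SE 0.09, limma adjusted p = 0.0046) and Acsl4 (0.71, SE 0.13, limma adjusted p = 0.00479), which activate fatty acids, rose, and Hsd17b12 of the elongation cycle fell (-0.51, SE 0.09, limma adjusted p = 0.00513). Among fatty acid oxidation genes, the opposing route, 5 rose and 3 fell of 19 measured (26.3% and 15.8%, median -0.10), against 19.2% and 19.0% of all tested genes. Hadhb (1.09, SE 0.12, limma adjusted p = 0.000845), Hadh (1.0, SE 0.17, limma adjusted p = 0.00398) of the mitochondrial cycle and Cpt1a, which admits fatty acids to mitochondria (0.44, SE 0.10, limma adjusted p = 0.0113), rose. The 3 falls in this list became 1 without panobinostat library 1 or 2, 0 without panobinostat library 3 or untreated library 2 or 3, and 6 without untreated library 1.

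**Figure D4:**
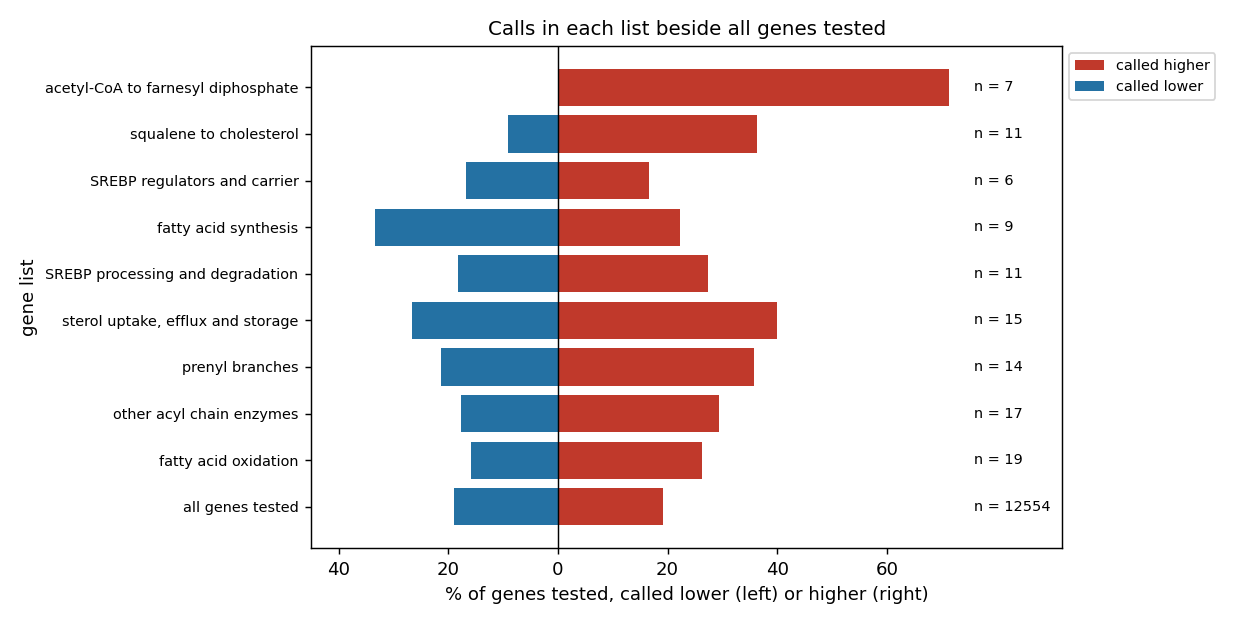
Share of tested genes called higher (red, to the right) and lower (blue, to the left) in panobinostat libraries, as % of the genes tested in each list, with the 4 classes of the set at the top, 5 neighbouring lists below them and all tested genes at the bottom. The stretch from acetyl-CoA to farnesyl diphosphate has 71.4% called higher and 0 called lower, where all tested genes have 19.2% and 19.0%.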

How the data were processed

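Libraries were made from 100 ng of total RNA with a 3' mRNA kit. The submitters' processing notes name mm10 as the build and, as software, HISAT2 (2.1.0), cutadapt (1.9), limma and the featureCounts program of Subread (1.5.0). Which annotation, filter and strand setting were used is not given in the sources used here. Log2 values were deposited by the authors, with 1 column per library. That they are log2 CPM, quantile normalized, was inferred: powers of 2 summed to 994114 to 994182 per library, and library medians were 4.01 to 4.02. A shift of all genes one way would not be visible in such values.

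Genes whose log2 values averaged 0 or more across the 6 libraries entered a fit with limma 3.58.1 in R 4.3.3 (lmFit, eBayes with trend) on the deposited values, with Benjamini-Hochberg adjustment over 12554 genes calling genes under 0.05, with no pseudocount. Reads were estimated from steps between tied values, which cover counting error only, since the reads carry no molecular identifier and are not independent molecules. Positions and overlaps of transcript ends came from GENCODE M21 (GRCm38), where the last 300 bases were compared with other transcripts by BLAST, at 95% identity over at least 100 bases. The limma fit was tested on simulated data, and the other steps were not. Tables were read with pandas 2.3.3 in Python 3.11.15, and figures drawn with matplotlib 3.10.9.

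The members and lists were chosen with earlier results of these data known. Named were all members and, of each neighbouring list, up to 4 genes with the smallest adjusted p, 3 of which are not reported here. No list was tested as a set.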

Additional observations from a re-analysis of the deposited data

How the results depend on the processing

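The 33 genes kept the direction of each call in every alternative run. All 33 kept their side of the threshold with no filter, with trimmed mean or median ratio scaling, with a pseudocount of 1 and with robust spread estimates, and 32 of 32 did with a mean log2 of at least 2. Neither scaling moved a library by more than 0.0131 log2 in these already normalized values. Agreement under either scaling was therefore near certain beforehand. Without a mean-variance trend Elovl1 and Scd1 were lost, which left 1 fatty acid enzyme called lower. With sample weights Pmvk was gained (-0.45), which made 2 sterol enzymes called lower. At an adjusted p below 0.01, 2513 of the 4806 calls over all genes were left, with 7 of the 9 sterol enzymes called higher (Hmgcs1 and Mvk were lost), 0 control genes called higher (Srebf1 was lost) and 1 fatty acid enzyme called lower (Elovl1 and Scd1 were lost). Among the neighbouring lists that threshold left 1 prenyl gene called higher and 3 oxidation genes called higher with 0 lower, and oxidation genes called lower numbered 1 without a trend and 5 with sample weights. With each library left out in turn, calls over all genes ranged from 3295 to 5226, sterol enzymes called higher from 8 to 9 and lower from 1 to 2, control genes called higher from 0 to 1 with 1 called lower throughout, and fatty acid enzymes called higher from 2 to 3 and lower from 1 to 3. The replicate numbers of the table's columns gave no clear pairing of the libraries. Deviations of same-numbered libraries from their group means correlated at -0.044, 0.104 and -0.011. Panobinostat libraries 1 and 3 correlated better with another number, and library 2 best with its own. With 3 libraries per group such correlations cannot show that no pairing existed. With the replicate block 4148 genes were called, and among the 33 genes only the Elovl1 call was lost (limma adjusted p = 0.0517). Lss, Nsdhl and Dhcr7, none of them called, had an estimated 17 to 51 reads per library, and Srebf1, which was called, had 25 to 58. The cause of these changes was not tested.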
